A study of Homo sapiens with 4 samples.

Results

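The clustered protocadherin locus is the stretch of chromosome 5 from 140.160 to 140.900 Mb (hg19, 740 kb, band 5q31.3, a light Giemsa band) that holds the protocadherin alpha, beta and gamma gene clusters. Its members here are the deposited EZH2 peaks that share at least 1 base with it: 46 of the 31077 peaks called in H3.1-WT cells and 23 of the 35016 called in H3.1-K27M cells, 69 of 66093 in all. Within these bounds the members were chosen by position alone. The locus and its bounds were chosen with earlier results of these data known. Within the locus, alpha was taken as 140.165 to 140.392 Mb, beta as 140.430 to 140.630 Mb and gamma as 140.710 to 140.893 Mb. Flanks of 700 kb on each side, with 12 peaks before and 18 after the locus over both lists, served for comparison. The bounds came with the definition of the locus and were not checked against hg19 gene models, since no hg19 annotation was used here.

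The peaks come from CUT&RUN, where a nuclease tethered by an antibody cuts out the DNA around the antibody's target for sequencing. HEK293, a long-established line from human embryonic kidney, was used throughout. Its cells had been transduced with lentivirus, kept under G418 and treated with doxycycline at 1 µg/ml, and carried either H3.1-WT or H3.1-K27M, in which lysine 27 of histone H3.1 is replaced by methionine. Both groups thus carried an introduced histone, and no group without one was analysed here. Each genotype had 1 EZH2 library and 1 control library made with the anti-rabbit HRP secondary antibody alone, 4 libraries in all. The genotype label gives H3.1-K27M for the libraries whose titles read only H31, so that name is used here.

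Neither genotype has a second EZH2 library, so the differences below lack a replicate check and none was tested. Read numbers are not in the lists. Sequencing depth is therefore unknown, and the number and strength of peaks may follow it. The 95% intervals given for ratios and shares cover counting error only and take peaks to be independent. The fold enrichment of a peak, a linear ratio of signal to the caller's background, and its −log10 q value are as the authors gave them. A −log10 q of at least 5 is called strong here. In both lists the weakest peaks had a −log10 q of about 1.

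Clustered protocadherins are cell-surface adhesion proteins of the cadherin superfamily, best known for giving single neurons a combinatorial surface identity. In the alpha and gamma clusters each variable exon has its own promoter and is spliced to constant exons shared by the cluster, while beta genes have a single coding exon. Promoter choice is known to involve DNA methylation and CTCF, a factor that folds chromatin into loops and binds a conserved element with the core CGCT in most of these promoters. EZH2 carries the methyltransferase activity of PRC2, a Polycomb complex acting on lysine 27 of histone H3 and found in vertebrates mostly at CpG-rich DNA.

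The RefSeq gene table, on GRCh38.p14, lists 53 of 53 clustered protocadherin genes named for the comparison in the order alpha, beta, gamma. It places SLC25A2, a mitochondrial carrier gene, and TAF7, which encodes a subunit of the general transcription factor TFIID, between the last beta and the first gamma gene. ZMAT2 is the nearest protein-coding gene before PCDHA1 and DIAPH1 the nearest after PCDHGC5. Only this order was taken from the table. Peaks were not assigned to single genes, because gene positions in GRCh38.p14 and peaks in hg19 cannot be set side by side.

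RefSeq promoter windows (GRCh38.p14, 300 bases, from 250 before to 50 after the gene start) were searched for CGCT, the core of the element named above. They were found for 47 of the 53 genes, with 52 windows in all, and not for PCDHA3, PCDHA13, PCDHB6, PCDHB11, PCDHGA12 and PCDHGC5. The 4 letters CGCT, searched on both strands, occurred in 51 of the 52 windows (98.1%), against 70.0% of 35116 windows of all genes. The window without it was that of PCDHA9. The stretches around CGCT are shown for the first 3 genes of each cluster that hold the cluster's own string. CGCT is in capitals, and all are on the plus strand. They were picked for that string and aligned on it. They share its letters by choice and do not measure how alike whole promoters are.
PCDHA1: tggccacatgatgtCGCTgtacac
PCDHA2: tagccacatgatgtCGCTgtccac
PCDHA4: gagccacatgatgtCGCTctttac
PCDHB2: gagacgcggggtggCGCTgcagcc
PCDHB3: cgaacgcatggtggCGCTgttgac
PCDHB4: aagacgcagggtggCGCTgcaggc
PCDHGA1: aggactgtgggcgcCGCTgttcac
PCDHGA2: aggcctctgagcgtCGCTgttgac
PCDHGA3: aggcctcttagtgtCGCTgttgac

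Nearly all alpha and beta windows held a shared string around CGCT, and fewer gamma windows did. The alpha and beta strings take the 3 bases before CGCT and the gamma string the 3 after it. Variation was therefore not compared on the same bases. TGTCGCT occurred in 10 of 11 alpha windows, in 1 of 14 beta and 3 of 22 gamma windows, and in 1.76% of all windows. TGGCGCT occurred in 13 of 14 beta windows, in 0 of 11 alpha and 4 of 22 gamma windows, and in 4.08% of all windows. CGCTGTT occurred in 14 of 22 gamma windows, in 0 of 11 alpha and 1 of 14 beta windows, and in 2.26% of all windows. The 22 gamma windows came from 18 genes, of which 13 held this string. Of the 5 C-type windows, 1, in gamma, held TGGCGCT, and none held the other strings. These 3 strings, each searched on both strands and each containing CGCT, were chosen after the windows had been read, so the counts describe them and test nothing. Taking 1 window per gene, CGCT of the cluster's own string lay at a median of 51.5 bases before the gene start in 10 alpha genes, 61.0 in 13 beta genes and 48.0 in 13 gamma genes. A match of letters is not a bound site, and CTCF was not measured here.

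The median CpG content of C-type genes, the last variable exons of the alpha and gamma clusters, was above that of the other genes, with some overlap. Windows of the other alpha genes had a median of 7 CpG in 300 bases and 36.0% GC, those of beta genes 7.50 and 40.8%, and those of the other gamma genes 7.50 and 43.7%. The C-type windows had medians of 21 CpG in alpha and 23 in gamma, with 64.5% and 60.7% GC. Their range, from 15 in PCDHAC2 to 27 in PCDHAC1, overlapped that of the other gamma windows, from 2 to 25, in which PCDHGB6 had the highest value. The other alpha windows had at most 9 and the beta windows at most 12. Over all windows the medians were 14 CpG and 58.7% GC. PCDHA1, with 4 CpG, and PCDHAC1, with 27, stand for the low and the high kind in alpha and are printed with CG in capitals (GRCh38.p14, plus strand, chr5:140785890-140786189 and chr5:140926049-140926348). These positions are not comparable with those of the peaks.
PCDHA1: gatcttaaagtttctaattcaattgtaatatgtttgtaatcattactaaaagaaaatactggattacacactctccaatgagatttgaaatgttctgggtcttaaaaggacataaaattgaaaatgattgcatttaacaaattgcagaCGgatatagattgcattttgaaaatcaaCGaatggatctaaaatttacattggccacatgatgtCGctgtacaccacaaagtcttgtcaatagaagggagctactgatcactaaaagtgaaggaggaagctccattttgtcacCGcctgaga
PCDHAC1: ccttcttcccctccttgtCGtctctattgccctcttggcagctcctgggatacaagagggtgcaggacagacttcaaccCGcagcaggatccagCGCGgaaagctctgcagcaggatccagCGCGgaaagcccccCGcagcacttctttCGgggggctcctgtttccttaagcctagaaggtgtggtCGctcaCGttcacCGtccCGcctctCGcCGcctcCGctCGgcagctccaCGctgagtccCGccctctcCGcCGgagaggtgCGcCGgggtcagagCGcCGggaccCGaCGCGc

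EZH2 peaks took up less of the locus in H3.1-K27M cells than in H3.1-WT cells. In H3.1-WT cells the 46 peaks covered 67966 bases, 9.18% of the locus, and in H3.1-K27M cells the 23 peaks covered 26157 bases, 3.53%. The ratio of H3.1-K27M to H3.1-WT was 0.500 for peak number (exact 95% interval 0.289 to 0.842) and 0.385 for covered bases. On all autosomes the same ratios were 0.976 and 1.04, and on chromosome 5 they were 1.24 and 1.38. The protocadherin locus thus held fewer peaks in H3.1-K27M on a chromosome that held more in total. Most autosomal windows of the same length also held fewer, as given below.

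Every cluster had less covered length in the H3.1-K27M list. Alpha had 17 H3.1-WT peaks over 21373 bases and 5 H3.1-K27M peaks over 6867 bases, with a ratio of 0.294 for peaks (0.0848 to 0.831) and 0.321 for bases. Beta had 19 peaks over 27425 bases and 11 over 10290 bases, with ratios of 0.579 (0.249 to 1.28) and 0.375. Gamma had 8 peaks over 11091 bases and 4 over 4144 bases, with ratios of 0.500 (0.110 to 1.87) and 0.374. The intervals of the 3 peak ratios overlap, and an order of the clusters was not tested.

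**Figure D1:**
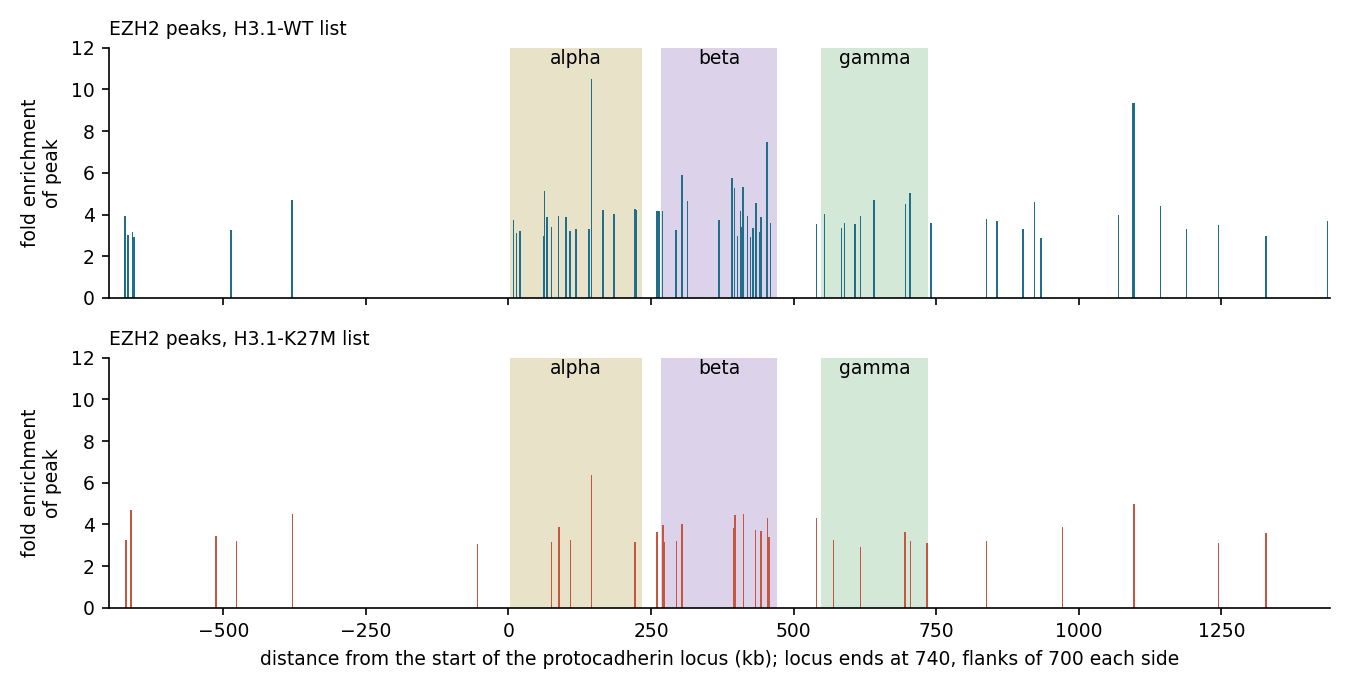
Each bar is 1 EZH2 peak, placed by its distance in kb from the start of the locus, with its fold enrichment as height (bars are at least 2.5 kb wide so that narrow peaks can be seen). The upper panel holds the 46 locus peaks of the H3.1-WT list and the lower the 23 of the H3.1-K27M list, with flanks of 700 kb; the highest bar of both panels lies in alpha.

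Beta was the most densely covered cluster in both lists. Peaks there covered 137 bases per kb for H3.1-WT and 51.5 for H3.1-K27M, against 94.2 and 30.3 in alpha and 60.6 and 22.6 in gamma. The 38 kb between alpha and beta reached 198 and 110 bases per kb, through 1 wide peak per list and the edge of a further peak on the beta bound. The 80 kb between beta and gamma, the interval that holds SLC25A2 and TAF7 by gene order, had 6.91 and 4.55 bases per kb from 1 peak per list. Chromosome 5 as a whole had 17 and 23.4 bases per kb.

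**Figure D2:**
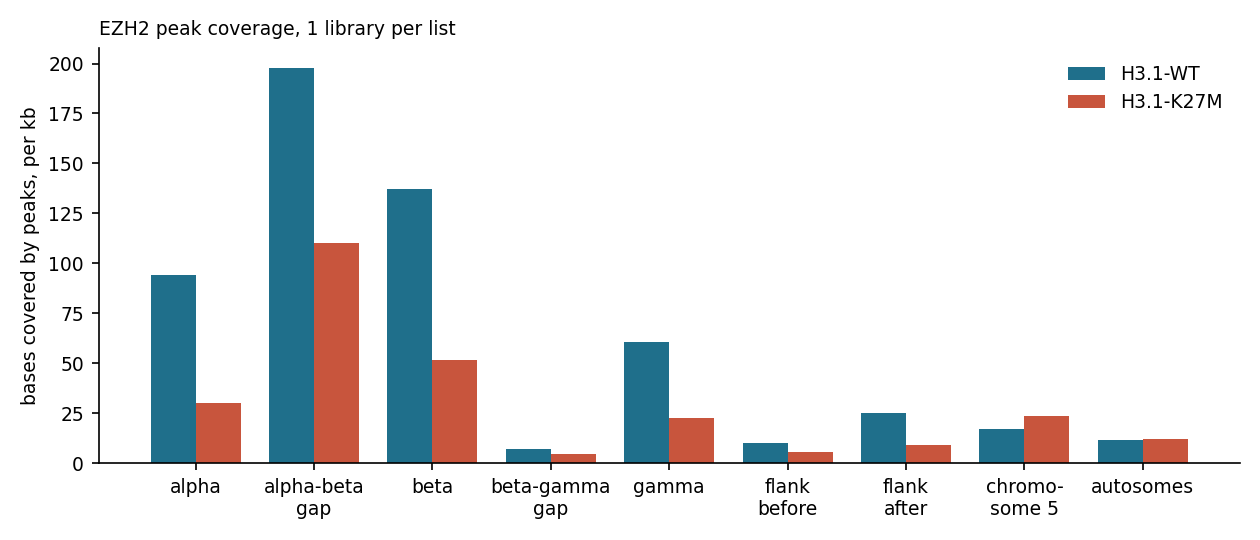
Bars give the bases covered by EZH2 peaks per kb in each cluster, the gaps between clusters, the flanks, chromosome 5 and all autosomes, with 1 library per list and therefore no error bars. H3.1-WT bars are higher than H3.1-K27M bars in the 3 clusters, both gaps and both flanks, and lower on chromosome 5 and on all autosomes.

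The locus stood above its flanks in both lists. Coverage was 91.8 bases per kb in the locus and 17.6 in both flanks together in H3.1-WT, a quotient of 5.23, and 35.3 and 7.47 in H3.1-K27M, a quotient of 4.73. Relative to all autosomes the H3.1-WT quotient was 7.99 and the H3.1-K27M quotient 2.94. Peak numbers did not move alike in the flanks. The flank before the locus had 6 peaks in each list, and the flank after it had 13 H3.1-WT and 5 H3.1-K27M peaks, a ratio of 0.385 (0.107 to 1.15). Covered bases in the flanks were 0.560 and 0.371 times those in H3.1-WT, before and after the locus. Covered length was therefore lower in H3.1-K27M over each flank as a whole, but not in the part just before the locus. There the last H3.1-WT peak ended at 139781045. An H3.1-K27M peak of 644 bases lay nearer the locus, at 140105393 to 140106036. The quotient of locus over flanks in H3.1-K27M rested on weak peaks: among strong peaks, 1 in the locus and 2 in the flanks, it was 0.654.

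Set beside windows of the same length, the locus was among the regions with most H3.1-WT peaks. Of 3883 windows of 740 kb that tile the autosomes, 11 (0.283%) held at least 46 H3.1-WT peaks, and 314 (8.09%) held at least 23 H3.1-K27M peaks. These shares favour the locus, because its bounds follow the clusters while the windows start at fixed steps. The locus was also chosen with earlier results known. A window that overlaps it, 139860001 to 140600000, held 33 H3.1-WT and 15 H3.1-K27M peaks. The median window held 6 and 3 peaks. The median ratio of H3.1-K27M to H3.1-WT peaks over the 3575 windows with H3.1-WT peaks was 0.571, and 47.6% had a ratio as low as that of the locus. Over these windows a ratio of 0.500 was thus ordinary, and 66.4% of them had fewer H3.1-K27M peaks. Over the 1604 of them centred in light bands, the kind of band that holds the locus, the median ratio was 0.500. Of those 1604, 57.2% had a ratio at or below that of the locus.

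Among windows rich in H3.1-WT peaks the locus lay at the low end. Each of the 11 windows with at least 46 H3.1-WT peaks had more peaks in H3.1-K27M, with ratios from 1.02 to 1.94. Of 119 windows with at least 23 H3.1-WT peaks, 7 (5.88%) had a ratio of 0.500 or lower, and 1 of these 7, in a light band, overlaps the locus itself. Without it, 6 of 118 (5.08%) had a ratio as low. The median ratio was 1.26 over the 119, 1.09 over the 36 of them centred in light bands, of which 4 had a ratio as low (3 of 35 without the overlapping window), and 1.60 over the 40 centred in the darkest bands. The minimum of 23 and the split by band were chosen after seeing the data.

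**Figure D3:**
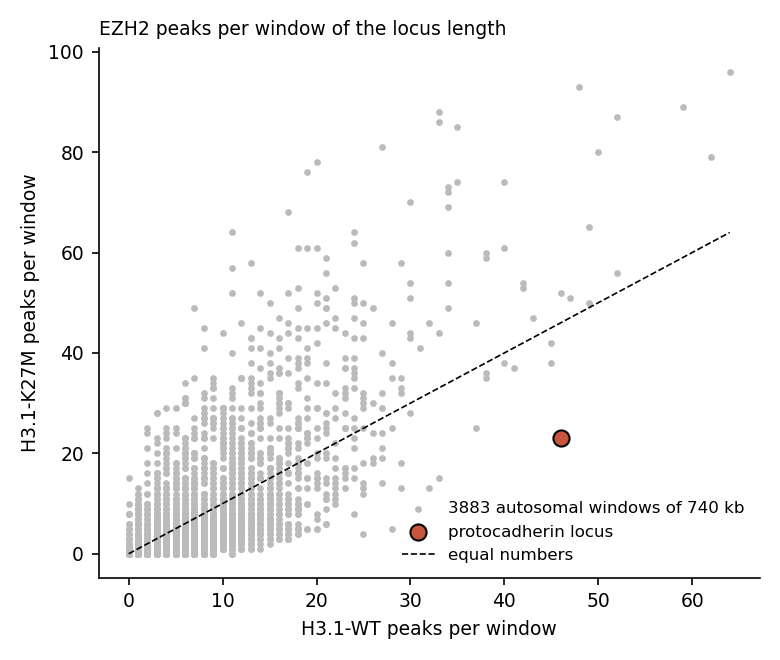
Each grey point is 1 of 3883 autosomal windows of 740 kb, with H3.1-WT peaks on the horizontal and H3.1-K27M peaks on the vertical axis; the dashed line marks equal numbers. The protocadherin locus, at 46 and 23, lies below the line, while the 11 windows with at least as many H3.1-WT peaks lie above it.

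Higher shares of locus peaks than of autosomal peaks passed the minimums on −log10 q, with no test of the difference. In H3.1-WT 8 of 46 locus peaks were strong (17.4%), against a background of 6.97% of autosomal peaks, and 30 (65.2%) had a −log10 q of at least 2, against 42.4%. In H3.1-K27M 12 of 23 (52.2%) had at least 2, against 25.6%. The single strong one (4.35%, against 2.19%) is too few to set against the background. The median fold enrichment of locus peaks was 3.91 for H3.1-WT and 3.66 for H3.1-K27M, against 3.43 and 3.36 on autosomes. Their median widths were 1224 and 811 bases, against 778 and 810 bases on autosomes.

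The ratio of peak numbers in the locus fell as the minimum rose. With a −log10 q of at least 2 it was 0.400, from 12 and 30 peaks, and 0.588 on autosomes. With at least 3 it was 0.278, from 5 and 18 peaks, and 0.377 on autosomes. Among strong peaks it was 0.125, from 1 and 8, and 0.306 on autosomes. Since q values depend on depth, these counts are properties of the lists, not amounts of bound EZH2.

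The strongest peak of the locus was the same site in both lists and lay past the middle of alpha. In H3.1-WT it spanned 140305188 to 140306940 with a fold enrichment of 10.5 and a −log10 q of 23.8. In H3.1-K27M it spanned 140304775 to 140306585 with a fold enrichment of 6.37 and a −log10 q of 9.51. The peaks shared 1398 bases and were nearly equally wide, 1753 and 1811 bases. On autosomes 149 H3.1-WT peaks (0.513%) and 176 H3.1-K27M peaks (0.621%) had a fold enrichment at least as high as the locus maximum of their list, so the site held a like rank in both. It was the only strong locus peak of the H3.1-K27M list.

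Alpha otherwise held moderate peaks in H3.1-WT. No H3.1-K27M peak overlapped 12 of its 17, and the overlapped share, 29.4%, was near the 34.7% of autosomes. The second highest of alpha, 140223467 to 140224007, had a fold enrichment of 5.15 over 541 bases, and the nearest H3.1-K27M peak lay 10884 bases away. Next to it the second widest H3.1-WT peak of the locus, 140225149 to 140228934, spanned 3786 bases with a fold enrichment of 3.88, and the nearest H3.1-K27M peak was 5957 bases away. The first H3.1-K27M peak of alpha began at 140234892, beyond the first 6 H3.1-WT peaks, which started at 140168539. The third widest H3.1-K27M peak, 140267260 to 140269926, was an exception in form: it spanned 2667 bases around an H3.1-WT peak of 360 bases, and both had a fold enrichment of 3.23.

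The widest locus peak of either list lay between alpha and beta. It spanned 6356 bases in H3.1-WT (140418645 to 140425000, fold enrichment 4.16) and 3414 bases in H3.1-K27M (140419393 to 140422806, 3.66), the latter wholly inside the former. The interval downstream of the alpha constant exons is known from other work to hold an enhancer of the alpha cluster. Whether these peaks lie on it was not tested. Over the beta bound followed a strong H3.1-WT peak (140428833 to 140431457, fold enrichment 4.16, −log10 q 5.46), overlapped by the second widest H3.1-K27M peak (140429230 to 140432364, 3135 bases, 3.98).

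Beta held 6 of the 8 strong H3.1-WT peaks and no strong H3.1-K27M peak. The highest, at the distal end of beta (140612211 to 140615552, 3342 bases), had a fold enrichment of 7.48 and a −log10 q of 12.8 in H3.1-WT. The H3.1-K27M peak inside it (140613940 to 140615357) had 4.31 and 3.42. The peak at 140463766 to 140464783 had a fold enrichment of 5.90 in H3.1-WT and 4.01 in its H3.1-K27M counterpart.

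From 140527330 to 140620199 the H3.1-WT list had 15 peaks and the H3.1-K27M list 7. The highest H3.1-K27M peak of beta (140571948 to 140572335, fold enrichment 4.51) lay inside an H3.1-WT peak with 5.30 (140570699 to 140572578), and the next (140556872 to 140557682, 4.44) inside one with 5.26 (140555654 to 140557683). A single strong H3.1-WT peak of the locus had no H3.1-K27M counterpart, 140551736 to 140552118, with a fold enrichment of 5.73 and a width of 383 bases. The nearest H3.1-K27M peak began 2972 bases beyond it. Wide but weak H3.1-WT peaks lay at 140527330 to 140530592 (3263 bases, fold enrichment 3.76, no counterpart) and 140451911 to 140454720 (2810 bases, 3.24, with a counterpart of 3.22).

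Neighbouring H3.1-WT peaks in beta lay closer together than in the other clusters. The median distance between midpoints was 5492 bases in beta, 9454 in alpha and 18012 in gamma, against 44336 on autosomes. In H3.1-K27M the medians were 11040, 28457 and 47299, from 10, 4 and 3 distances, against 22205 on autosomes.

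Gamma had the fewest peaks and the fewest covered bases per kb of the 3 clusters. Its H3.1-WT peaks were not lower at the median, with a fold enrichment of 3.98 against 3.92 in beta and 3.88 in alpha, while its H3.1-K27M median was 3.23, against 3.85 and 3.23. Its highest H3.1-WT peak (140863091 to 140864546) had a fold enrichment of 5.01 and a −log10 q of 5.13, against 3.21 and 1.31 for the overlapping H3.1-K27M peak (140864032 to 140864997). The highest H3.1-K27M peak of gamma (140854070 to 140856110, 2041 bases) had 3.62, against 4.50 in H3.1-WT (140854642 to 140856810). Both sites lie towards the distal end of the cluster. None of the 4 H3.1-K27M peaks of gamma reached a −log10 q of 2, against 5 of 8 in H3.1-WT. A peak at 140800636 to 140801502 with a fold enrichment of 4.71 in H3.1-WT had no H3.1-K27M peak within 23072 bases.

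The single peak between beta and gamma went the other way. Its fold enrichment was 3.54 for H3.1-WT (140700129 to 140700681) and 4.32 for H3.1-K27M (140700425 to 140700788), with −log10 q values of 2.35 and 3.02. It was the fourth highest H3.1-K27M peak of the locus and ranked 32 among the 46 of H3.1-WT. In none of the other 17 overlapping pairs of the locus was the H3.1-K27M value higher.

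Parts of the locus carried no peak in either list. The longest such stretch, 79929 bases from 140620200 to 140700128, lay between beta and the site just described. Others were 52663 bases within beta (140474667 to 140527329), 52567 bases within gamma (140801503 to 140854069) and 39978 bases within alpha (140180830 to 140220807). In H3.1-K27M the longest stretch without a peak was 90091 bases, within beta (140465000 to 140555090). At the bounds of the locus, the last H3.1-K27M peak inside was 140893932 to 140894238 with a fold enrichment of 3.09, and the first H3.1-WT peak outside was 140900315 to 140901575 with 3.61. At the other end the first H3.1-WT peak inside began at 140168539, and the last outside was an H3.1-K27M peak at 140105393 to 140106036 with 3.07.

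Whether both genotypes had peaks at the same places was compared by overlap. Most H3.1-K27M locus peaks shared at least 1 base with an H3.1-WT peak, but fewer matched one closely. The count was 18 of 23 (78.3%, 95% Wilson interval 58.1% to 90.3%), against 35.3% of autosomal H3.1-K27M peaks. In the other direction, 18 of the 46 H3.1-WT peaks were met by H3.1-K27M (39.1%, 26.4% to 53.5%), against 34.7% on autosomes, a share near the background. Where the shared bases had to make up 50% of both peaks, 7 of 23 H3.1-K27M peaks (30.4%, against 14.6% on autosomes) and 7 of 46 H3.1-WT peaks (15.2%, against 14.2%) were overlapped. H3.1-WT peaks covered 9.18% of the locus and 1.15% of the autosomes, and the part of that difference in the overlap was not tested.

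Windows rich in H3.1-WT peaks give another measure. In the 119 windows with at least 23 H3.1-WT peaks, H3.1-WT peaks covered 5.14% of bases, and 36.3% of 4872 H3.1-K27M peaks were overlapped. The share per window ran from 18.9% to 100%, with a median of 38.0%, and 3 windows reached that of the locus, 1 of which overlaps it. In the other direction the locus lay low. H3.1-K27M peaks covered 8.94% of bases in these windows, and 52.1% of 3673 H3.1-WT peaks were overlapped. The median per window was 51.9%, and 98 of the 119 windows were at or above the 39.1% of the locus. Within the locus, 17343 bases were covered by both lists, 66.3% of those of H3.1-K27M and 25.5% of those of H3.1-WT.

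Merging both lists gave 51 regions in the locus. Of these 18 held peaks of both genotypes (35.3%, against 20.6% on autosomes), 28 held H3.1-WT peaks alone (54.9%, against 40.4%) and 5 held only H3.1-K27M peaks (9.80%, against 39.1%). In alpha 12 of 17 regions held H3.1-WT peaks alone and 0 held only H3.1-K27M peaks. Beta had 11 and 3 such regions of 22, and gamma 5 and 1 of 9.

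The 5 H3.1-K27M peaks without an H3.1-WT peak had lower medians than those that were overlapped. Their median fold enrichment was 3.25 against 3.71, their median −log10 q 1.43 against 2.11 and their median width 454 against 1008 bases. Their fold enrichments ran from 3.09 to 3.85. The highest, 140555091 to 140555544, lay above the overlapped medians, with a fold enrichment of 3.85 and a −log10 q of 2.20. Distances of the 5 to the nearest H3.1-WT peak ran from 109 to 13735 bases, with a median of 2280, and were not set against a background. The 28 H3.1-WT peaks without a counterpart had a median fold enrichment of 3.67, a median −log10 q of 2.15 and a median width of 849 bases, against 4.21, 3.66 and 1796 bases for the other 18.

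Stronger H3.1-WT peaks were overlapped more often, as on autosomes. Between a −log10 q of 1 and 2, 3 of 16 locus peaks were overlapped (18.8%). The count was 3 of 12 from 2 to 3 (25.0%), 5 of 10 from 3 to 5 (50%) and 7 of 8 for strong peaks (87.5%). On autosomes the shares were 24.5%, 36.5%, 51.4% and 83.5%. For H3.1-K27M 7 of 11 locus peaks from 1 to 2 were overlapped (63.6%, against 25.9% on autosomes). The count was 6 of 7 from 2 to 3 (85.7%, against 53.5%) and 4 of 4 from 3 to 5 (100%, against 80.0%). The 1 strong peak was overlapped too, against 96.3% on autosomes.

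Where both lists had a peak, the H3.1-K27M peak was mostly the lower. Fold enrichment was lower in H3.1-K27M in 17 of the 18 overlapping pairs of the locus, against 60.1% of 10397 autosomal pairs, and the median quotient was 0.847 against 0.953. At 3 significant digits 1 of these pairs, at 140267868, was equal, leaving 16 lower, against 59.7%. The −log10 q was lower in 17 of 18 as well, against 64.9% of autosomal pairs. The H3.1-K27M peak was narrower in 15 of 18 pairs, against 57.1% on autosomes, with median width quotients of 0.549 and 0.872.

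The quotient was lower where the H3.1-WT peak was higher, in the locus and on autosomes alike. In the 6 locus pairs with an H3.1-WT fold enrichment of at least 5 the median quotient was 0.660, against 0.645 in 1697 autosomal pairs of that strength. In the 5 from 4 to 5 it was 0.823 against 0.820 in 2026 pairs. In the 7 from 3 to 4 it was 0.992 against 1.02 in 6149 pairs, and 6 of these 7, with the pair equal at 3 digits among them, were lower in H3.1-K27M, against 44.7%. Overlapping peaks of the locus were thus weaker in H3.1-K27M by about as much as autosomal pairs of the same H3.1-WT strength. These strata were chosen after seeing the data. The H3.1-WT value both set the strata and divided the quotient. The fall with strength can therefore not be read as a larger loss at strong sites.

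**Figure D4:**
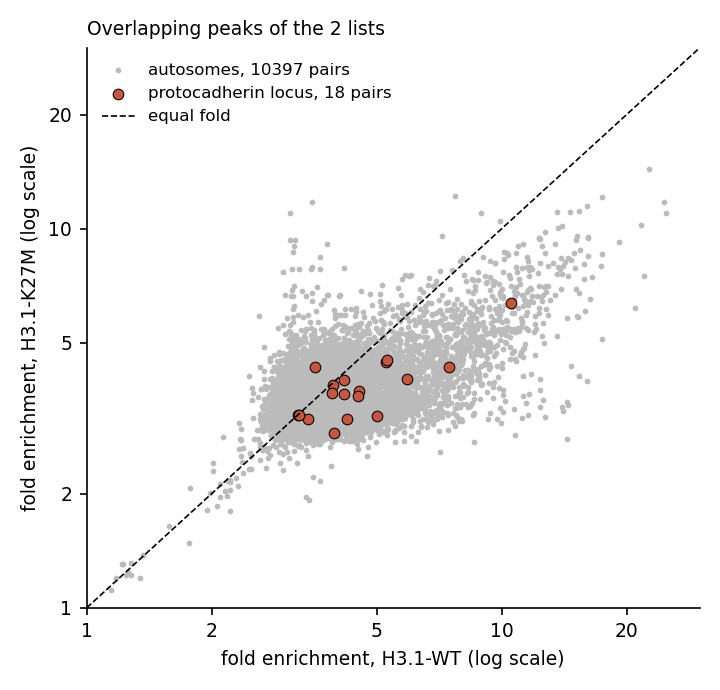
Each point is 1 pair of overlapping peaks, with the fold enrichment in H3.1-WT on the horizontal and in H3.1-K27M on the vertical axis, both on log scales; 10397 autosomal pairs are grey and the 18 locus pairs are red. Of the locus pairs 16 lie below the dashed line of equal values, 1 on it at 3 digits and 1 above it, the lowest quotient being 0.576 and the highest 1.22.

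The flanks contained a site of similar strength to the best of the locus. In the flank after the locus a peak at 141253753 to 141259112 (5360 bases) had a fold enrichment of 9.35 in H3.1-WT and 5.0 in its H3.1-K27M counterpart (141254518 to 141258880), a quotient of 0.535. The next highest there were 4.58 (141081897 to 141083678) and 4.39 (141303093 to 141303638) in H3.1-WT, without counterparts, and 3.90 (141131317 to 141131648) and 3.57 (141488220 to 141488633) in H3.1-K27M. In the flank before the locus the highest were 4.72, 3.93 and 3.25 in H3.1-WT and 4.71, 4.48 and 3.46 in H3.1-K27M. The pair at 139779882 to 139781045 there had values of 4.72 and 4.48.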

How the data were processed

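EZH2 binding was profiled by CUT&RUN in 4 HEK293 libraries, 1 EZH2 and 1 HRP control library per genotype. Per the submitters' processing notes the tools were MACS2, Bowtie2 2.3.5.1, Picard, deepTools and cutadapt, and the build hg19; roles and parameters are not listed. The authors deposited 1 broad peak list per genotype, each named for a single EZH2 library and its HRP control, with no pooling of samples. Each deposited peak has a fold enrichment (a linear ratio), a −log10 p-value and a −log10 q-value from the authors' caller. Scaling, depth and filters are not given in the sources used here. Depth can change both the number and the strength of called peaks.

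Positions are 1-based hg19, and 0 peaks ended past an hg19 chromosome end. Overlap means at least 1 shared base. Peaks were placed in clusters, flanks and windows by midpoint, and covered bases were cut at the bounds. Interval code was tested on simulated lists of 20000 sites, with 0 wrong calls. Bands came from circlize 0.4.16 and chromosome lengths from GenomeInfoDb 1.38.1. Python 3.11.15, pandas 2.3.3, scipy 1.17.1 and bedtools 2.31.1 were used.

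The peaks named were the 5 highest and 5 widest of each list in the locus, all strong ones, the highest of each cluster and the 3 highest of each flank; other named peaks were chosen after their values were seen. The locus, its bounds and the lists of genes were chosen with earlier results of these data known. Gene-level calls planned for an hg19 annotation were not made. Alternatives were minimums of −log10 q or fold enrichment, equal list lengths, joined peaks, placement by midpoint, other flanks and a reciprocal overlap of 50%.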

Additional observations from a re-analysis of the deposited data

How the results depend on the processing

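The H3.1-K27M list had fewer peaks and less covered length in the locus under each alternative run. Peak numbers in H3.1-WT and H3.1-K27M were 46 and 23 over all peaks. With the minimum −log10 q set to 2, 3 and 5 they were 30 and 12, 18 and 5, and 8 and 1. They were 35 and 14 at a fold enrichment of at least 3.36, the median pooled over both lists, 32 and 13 with the top 15538 peaks of each list, and 28 and 20 with peaks within 5000 bases joined. Placement by midpoint changed no count. The ratio of peak numbers ran from 0.125 at 5, and 0.278 at 3, to 0.714 with peaks joined. The ratio of covered bases, 0.385, was 0.146 at 3, 0.125 at 5 and 0.246 with peaks joined.

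Coverage of the locus over its flanks, 5.23 in H3.1-WT, was 7.97 with peaks joined, 9.12 against the flank before the locus alone and from 3.66 to 7.82 otherwise. In H3.1-K27M, 4.73 became 1.60 at 3, 15.0 with flanks of 350 kb, and reversed to 0.654 at 5, where the locus holds 1 peak and the flanks 2. These minimums were set on both lists at once, so the shares here differ from those of strong peaks of 1 list against the whole of the other. Overlapped H3.1-WT peaks, 39.1% of all, made up 22.2% at 3, 12.5% at 5, 53.6% with peaks joined and 15.2% with a reciprocal overlap of 50%. Overlapped H3.1-K27M peaks, 78.3% of all, made up 91.7% at 2, 100% at 5 (1 peak), 92.3% with equal list lengths and 30.4% with a reciprocal overlap. A higher minimum leaves fewer peaks by construction; the cause of the other moves was not tested. No paired analysis was possible because neither genotype has a second EZH2 library. The unknown depth of both libraries limits what peak number and strength can show.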
